A study of Mus musculus with 4 samples.

Results

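The guanylate-binding proteins (GBPs) and immunity-related GTPases (IRGs) are large GTPases best known as products of interferon-inducible genes. Expression of 10 of their genes, Gbp2, Gbp3, Gbp4, Gbp5, Gbp6, Gbp7, Irgm1, Irgm2, Igtp and Tgtp1, was read from a table of 22063 genes, from which each was taken by its symbol. The table holds RNA-seq of ID8, a mouse ovarian cancer cell line. Cells carrying a control shRNA (shCtrl, genotype WT in the labels) and cells carrying an shRNA against the deubiquitinase gene Usp9x (shUSP9X, USP9X knockdown in the labels) gave 2 libraries each. The shRNAs of the study were delivered by lentivirus from a vector with a puromycin resistance gene, and the shRNA, the TGF-β1 treatment and the oxygen level of the sequenced cells are not given in the sources used here. Library totals were 17232006 and 15611363 estimated counts in shCtrl against 19978889 and 17021261 in shUSP9X. The labels do not say whether the libraries of a group came from separate cultures, so the p-values measure the spread between these libraries, which may be technical. In bulk RNA, a change in the number of cells that express a gene and a change in RNA per cell cannot be told apart.

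Both families act in defence inside the cell. GBPs bind to vacuoles and bacteria and bring them to lysis and to inflammasome sensing, while IRGs of the effector class disrupt the membranes around parasites and IRGs of the regulatory class (Irgm1, Irgm2 and Igtp) sit on the cell's own membranes and hold the effectors inactive. Interferons switch the genes on through promoter elements. The interferon-stimulated response element (ISRE) answers mainly to type I interferon, and the gamma-activated sequence (GAS) mainly to interferon-γ.

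The promoter stretches that hold these letters are shown because they are a feature not read from the counts. Both families are known as interferon-inducible, so such matches go with the choice of genes and are no independent support. Promoter windows of 300 bases (250 before and 50 after the transcription start, RefSeq, GRCm38.p6) were at hand for 8 of the 10 genes, all but Gbp4 and Gbp6. Each of the 8 held at least 1 ISRE match (GAAA, any 2 bases, GAAA, or on the other strand TTTC, any 2 bases, TTTC), against 3.44% of all 32851 windows. Gbp3 has a second window with no ISRE match, so that 8 of the 9 windows of these genes held one. A GAS match (TTCNNNGAA, the same on both strands) was found in 5 of the 8, against 8.3% of all windows. When the ISRE also had to end in CT, 5 of the 8 genes had a match, against 0.27% of all windows, and with 4 in place of 3 bases between TTC and GAA, 1 gene had a GAS match, against 6.95%. Matches of one motif can overlap each other. A match is a stretch of letters and not a measured binding site. Capitals mark ISRE and GAS letters, and each stretch reads 5′ to 3′ on the strand of its gene.
Gbp2: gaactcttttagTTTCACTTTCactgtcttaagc
Gbp3: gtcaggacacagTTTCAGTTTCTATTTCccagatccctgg
Gbp5: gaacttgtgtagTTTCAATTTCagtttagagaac
Gbp7: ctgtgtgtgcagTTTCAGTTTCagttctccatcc
Irgm1: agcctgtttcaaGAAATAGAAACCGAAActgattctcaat
Irgm2: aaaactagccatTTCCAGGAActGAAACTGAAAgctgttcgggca
Igtp: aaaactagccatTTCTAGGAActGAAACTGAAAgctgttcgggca
Tgtp1: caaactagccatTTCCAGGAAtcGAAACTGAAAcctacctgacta

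The GBP stretches lie at chr3:142620592-142620625 (Gbp2), chr3:142559987-142560026 (Gbp3), chr3:142496757-142496790 (Gbp5) and chr3:142530271-142530304 (Gbp7), all on the plus strand. The IRG stretches lie at chr11:48871423-48871462 (Irgm1, minus strand), chr11:58214890-58214934 (Irgm2, plus), chr11:58199499-58199543 (Igtp, plus) and chr11:48992302-48992346 (Tgtp1, minus). Counted from the transcription start, the ISRE match began at -59 in Gbp2, -53 in Gbp7 and -165 in Gbp5, and Gbp3 had overlapping matches at -45 and -39. Irgm1 had overlapping ISRE matches at -30 and -24 and no GAS match. In Irgm2, Igtp and Tgtp1 a GAS match stood just upstream of the ISRE match, with first bases at -75 and -64, -45 and -34, and -88 and -77. The stretches of Irgm2 and Igtp differed at 1 of 45 bases, and that of Tgtp1 differed from them at 11 and 12. Gbp7 had a pair of GAS matches at -106 and -87 beside its ISRE match, and Gbp5 a pair at -245 and -52, outside the stretches shown.

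Usp9x itself, the target of the shRNA, had 5169 and 4453 counts in the shCtrl libraries against 390 and 346 in the shUSP9X libraries. Its log2 fold change (shUSP9X against shCtrl) was -3.85 ± 0.06 (SE; edgeR quasi-likelihood test, Benjamini-Hochberg adjusted p = 4.66e-26), or -2.35 after the correction for GC content and length described later. The libraries therefore follow their labels. Of the markers of the ovarian surface and mesothelium from which ID8 derives, Krt8, Krt18, Krt19, Wt1, Msln and Upk3b were abundant in every library, while Krt7, Epcam and Pax8 had at most 9 counts in any library.

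Of the 10 GBP and IRG genes, 8 were higher in shUSP9X cells, 0 were lower, 1 (Gbp7) did not pass the test and 1 (Gbp5) had too few counts to be tested (edgeR, adjusted p under 0.05 over 11448 genes). Over all genes tested, 33.8% were higher and 33.6% lower at that threshold. The 8 genes also had a fold change above 1.5, which with the adjusted p held for 10.6% of all genes tested in the higher and 18.5% in the lower direction. Gbp4 reached the filter on low counts only through the shUSP9X libraries and so had to differ, and of the 8 genes that reached it in both groups 7 were higher. The median log2 fold change of the 9 tested genes was 1.62 (1.44 without Gbp4), against 0.00 over all genes tested. Summed over the 10 genes, expression was 101.3 and 98.9 CPM (counts relative to the library total, scaled by the trimmed mean of M-values, TMM) in the shCtrl libraries and 271 and 267 in the shUSP9X libraries, a ratio of 2.69. The 6 GBP genes summed to 17.99 and 17.96 CPM in shCtrl against 64.7 and 63.1 in shUSP9X, and the 4 IRG genes to 83.3 and 81.0 against 206.5 and 203.7.

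**Figure D1:**
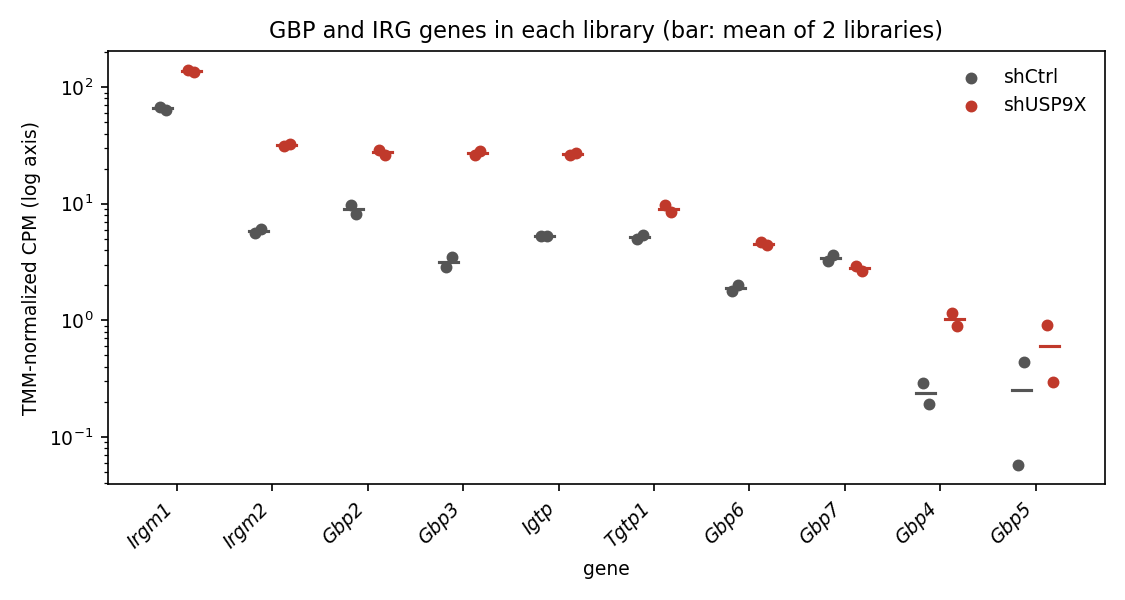
TMM-normalized CPM (log axis) of each of the 10 genes in the 2 shCtrl libraries (grey) and the 2 shUSP9X libraries (red), with a bar at the mean of each group. The red points lie above the grey ones for 8 genes, below them for Gbp7 and among them for Gbp5.

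Gbp3 had the highest log2 fold change of the 10 genes. It had 50 and 55 counts in the shCtrl libraries against 514 and 481 in the shUSP9X libraries. Both shUSP9X libraries lay far above both shCtrl libraries, and 80 of all genes tested (0.699%) had a higher log2 fold change. In CPM its level was 3.18 ± 0.42 in shCtrl and 27.3 ± 1.80 in shUSP9X (SD, n = 2), a log2 fold change of 3.10 ± 0.15 (SE; edgeR adjusted p = 4.00e-16). Gbp2, which coats parasite vacuoles and Gram-negative bacteria, had 169 and 130 counts in shCtrl against 574 and 442 in shUSP9X. The groups did not overlap. Gbp2 was 3.07-fold higher (log2 fold change 1.62 ± 0.12, SE; edgeR adjusted p = 5.04e-12).

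Gbp6, of the chromosome 5 group, had 30.6 and 32 counts in shCtrl against 92 and 75 in shUSP9X. It was 2.39-fold higher (log2 fold change 1.26 ± 0.27, SE; edgeR adjusted p = 0.000202), with both shUSP9X libraries above both shCtrl libraries. Much of its transcript is not its own: 51.3% of its 100-base words occur in other transcripts, mostly in the neighbouring gene model Gm43302, so its counts depend on how shared reads were divided. Gbp4 had 5 and 3 counts in shCtrl against 23 and 15 in shUSP9X, values near the floor of detection (3 counts, 0.152 to 0.190 CPM) in shCtrl. Its log2 fold change was 2.07 with a 95% confidence interval from 0.83 to 3.30 (edgeR adjusted p = 0.00369). The Gbp4 call was lost with DESeq2 (adjusted p = 0.0693) and without shUSP9X replicate 1 (edgeR adjusted p = 0.0573). Gbp5, which aids inflammasome assembly in macrophages, had 1 and 7 counts in shCtrl against 18 and 5 in shUSP9X. Its groups overlapped, and no difference was detectable at this depth.

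Gbp7, a gene linked to autophagy and the phagocyte oxidase, lies beside Gbp3 on chromosome 3 and did not pass the test. It had 56 and 57 counts in the shCtrl libraries against 58 and 45 in the shUSP9X libraries. In CPM these were 3.23 and 3.61 against 2.93 and 2.67, with both shUSP9X libraries slightly below both shCtrl libraries. In the deposited FPKM the groups overlapped (0.584 and 0.762 in shCtrl against 0.607 and 0.684 in shUSP9X). The log2 fold change was -0.28, with a 95% interval from -0.83 to 0.27 (edgeR adjusted p = 0.364). That interval lies below the interval of each of the other 8 tested genes, the nearest of which is Tgtp1 (0.46 to 1.18). With an offset that removes the trends on GC content and transcript length within each library, the Gbp7 value turned to 0.49 (interval -0.06 to 1.03; edgeR adjusted p = 0.108), and it then overlapped that of Tgtp1 (0.78 to 1.49) and of no other gene of the 8. Its promoter window holds both an ISRE and GAS matches, as do those of Irgm2, Igtp and Tgtp1.

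Irgm1 was the most abundant of the 10 genes. A regulatory IRG needed for control of mycobacteria and for mitochondrial and autophagy functions, Irgm1 had 1168 and 1015 counts in shCtrl against 2749 and 2283 in shUSP9X. Its level was 65.8 ± 2.23 CPM in shCtrl and 137.3 ± 2.55 in shUSP9X (SD, n = 2), and the groups did not overlap. The log2 fold change of 1.06 ± 0.05 (SE; edgeR adjusted p = 1.04e-15) was the most precise of the 10 and among the smaller ones. Irgm1 therefore took 66.5 and 64.9% of the summed CPM of the 10 genes in shCtrl and 51.3 and 50.8% in shUSP9X, and without it the sums were 33.9 and 34.7 CPM against 132.1 and 131.3, a ratio of 3.84.

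The other 2 regulatory IRGs, Irgm2 and Igtp (also called Irgm3), were also higher, by more than Irgm1. Irgm2 had 98 and 96 counts in shCtrl against 621 and 545 in shUSP9X, a log2 fold change of 2.44 ± 0.12 (SE; edgeR adjusted p = 1.19e-15). Igtp had 92 and 84 counts in shCtrl against 520 and 462 in shUSP9X, a log2 fold change of 2.34 ± 0.13 (SE; edgeR adjusted p = 9.88e-15). For both genes the shUSP9X libraries lay about 5-fold above the shCtrl libraries (5.44-fold and 5.05-fold), and their 95% intervals, 2.19 to 2.69 and 2.07 to 2.60, overlapped each other and lay above that of Irgm1. The GENCODE model of Igtp (chr11:58199556-58207591) lies inside that of Irgm2 (chr11:58199618-58222782) but for its first bases, on the same strand, so reads in the shared stretch could be counted to either gene. Only 2.48% of the 100-base words of Irgm2 and 5.67% of those of Igtp were shared.

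Tgtp1 (also called Irgb6), an effector IRG that loads onto parasite vacuoles, had 86.4 and 85.0 estimated counts in shCtrl against 192 and 142 in shUSP9X. Its log2 fold change was 0.82 ± 0.17 (SE; edgeR adjusted p = 0.000196), and the groups did not overlap. Its near-identical neighbour Tgtp2 had 118 and 82.0 estimated counts in shCtrl against 265 and 208 in shUSP9X (log2 fold change 1.10; edgeR adjusted p = 9.76e-07). Since 83.3% of the 100-base words of Tgtp1 are shared, mostly with Tgtp2, the division of reads between these 2 genes is uncertain. Their sum does not depend on that division, and it was 204 and 167 in shCtrl against 457 and 350 in shUSP9X.

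**Figure D2:**
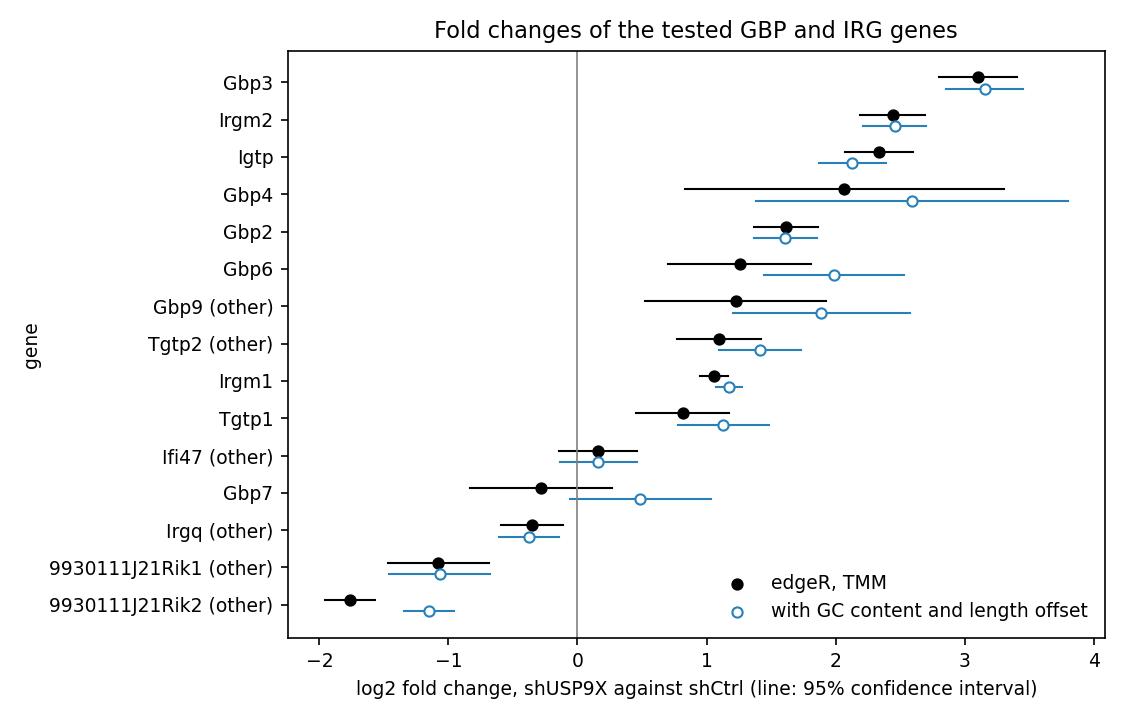
Log2 fold changes (shUSP9X against shCtrl) of the tested GBP and IRG genes with 95% confidence intervals, from edgeR with TMM (black) and with the offset for GC content and length (blue, open). Genes outside the 10 are marked (other). Gbp3 lies highest at 3.10, Gbp7 changes sign with the offset, and 9930111J21Rik2 lies lowest at -1.76.

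Fold changes followed the GC content and length of transcripts over all genes tested (Spearman's rho = 0.429 and -0.322 across genes, which are not independent replicates), and the 10 transcripts have GC contents between 41.1% (Gbp6) and 49.5% (Igtp). With the offset the log2 fold change was 3.16 for Gbp3, 1.61 for Gbp2, 2.46 for Irgm2, 2.13 for Igtp, 1.17 for Irgm1 and 1.13 for Tgtp1, and all 8 genes stayed higher (edgeR adjusted p at most 0.00057). Of these 8, Gbp6 moved most, from 1.26 to 1.99 on the log2 scale. Over the 11430 genes tested with the offset, 4074 were higher and 3254 lower.

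Levels can be compared between genes in FPKM, which is scaled for length. In shCtrl the order of the mean FPKM was Irgm1 (30.4), Gbp2 (3.60), Igtp (2.65), Tgtp1 (2.16), Irgm2 (1.71), Gbp3 (1.33), Gbp7 (0.673), Gbp6 (0.590), Gbp4 (0.117) and Gbp5 (0.083). The libraries of Tgtp1 and Irgm2, of Gbp7 and Gbp6, and of Gbp4 and Gbp5 overlapped, so their places in the order were not separated. In shUSP9X it was Irgm1 (61.8), Igtp (13.2), Gbp3 (11.9), Gbp2 (10.9), Irgm2 (9.09), Tgtp1 (4.49), Gbp6 (1.40), Gbp7 (0.646), Gbp4 (0.617) and Gbp5 (0.196), and of neighbouring places Gbp7 and Gbp4 overlapped. Gbp3 thus went from place 6 to place 3. For Gbp4, Gbp7, Tgtp1 and Gbp3 the deposited counts and FPKM do not follow each other by 1 fixed length. Their ratio of counts, relative to the library total, to FPKM differed between libraries by up to 2.003-fold, 1.44-fold, 1.42-fold and 1.20-fold, and in the other 6 genes by at most 1.03-fold, so the places of these 4 are less certain.

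Of 15 further genes of both families, 13 were in the table and 5 were tested, of which 2 were higher and 3 lower, beside 33.8 and 33.6% of all genes tested. Besides Tgtp2, Gbp9 was higher (19 and 20 counts in shCtrl, 52 and 49 in shUSP9X; log2 fold change 1.23, edgeR adjusted p = 0.00257, and 1.89 with the offset). The starts of Gbp9 and Gbp4 lie 47 bases apart on chromosome 5. The IRG-related genes 9930111J21Rik1 and 9930111J21Rik2, between Irgm1 and Tgtp2 on chromosome 11, went the other way. 9930111J21Rik2 had 843 and 822 estimated counts in shCtrl against 311 and 232 in shUSP9X, a log2 fold change of -1.76 ± 0.09 (SE; edgeR adjusted p = 4.66e-15), or -1.15 with the offset. 9930111J21Rik1, which shares 64.6% of its 100-base words with other transcripts, mostly those of 9930111J21Rik2, had 158 and 140 in shCtrl against 70.9 and 84.1 in shUSP9X (log2 fold change -1.08, edgeR adjusted p = 1.91e-05). Summed over both copies the counts were 1001 and 962 against 382 and 316, without overlap. Irgq, a family relative outside the clusters, was slightly lower (log2 fold change -0.35, edgeR adjusted p = 0.0105), a call that 5 of 15 alternative settings did not keep.

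The further family genes that were found but not tested were at or near the floor. Gbp2b, Gbp10 and F830016B08Rik had 0 counts in every library, which allows up to 0.190 CPM in the shallowest library. Gbp8, Gm4951, Gm5431, Irgc1 and Iigp1, a well-studied effector IRG, were not tested, and Iigp1 had 0 and 2 counts in shCtrl against 3 and 5 in shUSP9X. Ifi47, the IRG also called IRG-47 and added after its values were seen, had 161 and 144 counts in shCtrl against 189 and 186 in shUSP9X (log2 fold change 0.16, 95% interval -0.14 to 0.46; edgeR adjusted p = 0.348). Its interval lies below those of Irgm1, Irgm2, Igtp and Tgtp2 and overlaps that of Tgtp1. The promoter windows of Ifi47, 9930111J21Rik2 and Irgq held neither motif. The window of Tgtp2 held both (GAS at -81, ISRE at -70), and that of 9930111J21Rik1 held an ISRE match after the start, at 26. The window of Gm12250, whose counts were not analysed here, held a GAS match at -61 and ISRE matches at -91 and -46, and that of Gbp2b an ISRE match at -137.

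The genes sit in 4 clusters, on chromosomes 3 and 5 and at 2 places on chromosome 11 (GRCm38, GENCODE M21 gene spans). On chromosome 3, Gbp5 (chr3:142493978-142522344), Gbp7 (chr3:142530342-142550149), Gbp3 (chr3:142560026-142573209) and Gbp2 (chr3:142620602-142638008) follow each other on the plus strand. On chromosome 5, Gbp4 (chr5:105115767-105139586) and Gbp6 (chr5:105270702-105293698) lie on the minus strand, as do Irgm1 (chr11:48861968-48871683) and Tgtp1 (chr11:48985327-48994172) on chromosome 11. Within 500 kb of a member of the 10 and outside both families, 26 genes were tested, and 9 were higher, 9 lower and 8 not called, near the shares over all genes tested (33.8 and 33.6%), with a median log2 fold change of -0.05 and a highest value of 0.86. The highest was Gemin5, named after its value was seen, which had 0.91 with the offset. Its value lay within the 95% interval of Tgtp1 (0.46 to 1.18). Called neighbours with a log2 fold change of at least 1 in size were all lower. They were Pkn2, a protein kinase gene (-1.17), on chromosome 3, Zfp951 (-2.35) on chromosome 5, and Zfp62 (-3.05), Or2y1 (-1.60) and Psme2b (-1.15, edgeR adjusted p = 0.0499) on chromosome 11. Psme2b had 24.7 and 23.0 estimated counts in shCtrl against 20.7 and 2.75 in shUSP9X, so its change rested mostly on 1 library. With the offset Pkn2 had -0.32, Zfp951 -1.71 and Zfp62 -2.01. In the Irgm1 and Tgtp1 cluster 2 of 10 neighbours were higher and 5 lower, and around Igtp and Irgm2 5 of 8 were higher and 0 lower. With the offset the first cluster had 1 higher and 6 lower, and the second 4 higher and 1 lower. Among all 11430 genes tested with the offset, 4074 were higher and 3254 lower.

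**Figure D3:**
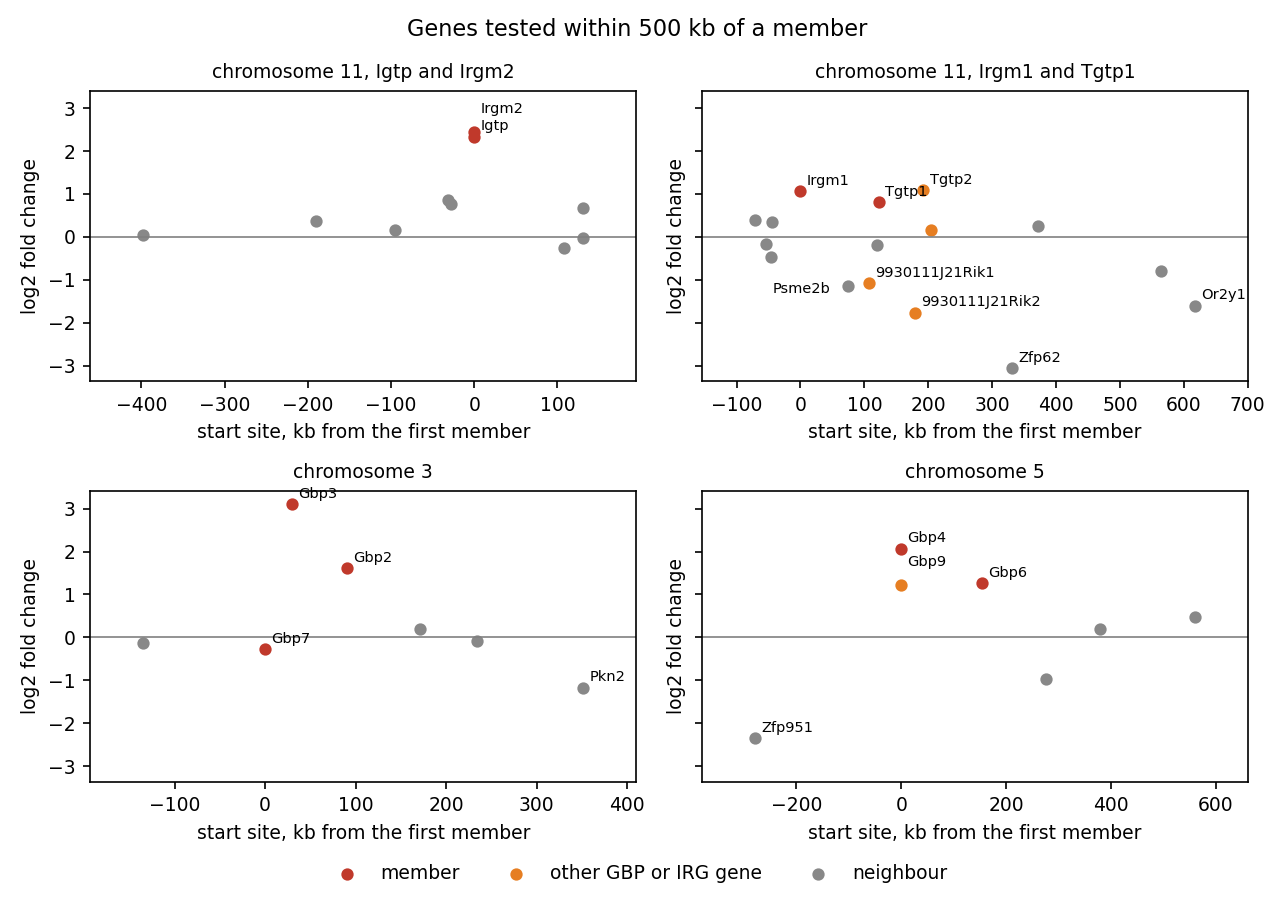
Log2 fold changes of the tested genes within 500 kb of one of the 10 genes, by the distance of their start from the first of the 10 in each cluster (kb), with the 10 genes in red, other GBP and IRG genes in orange and neighbours in grey. In each panel the grey points lie below the highest red point, and the lowest is Zfp62 at -3.05.

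The mean pattern over the 4 libraries was taken from the 9 tested genes of the 10, Gbp4 included and Gbp5 left out. The genes nearest to it were sought by Euclidean distance on centred log2 CPM among 9877 genes outside both families. The nearest were Tap1, a peptide transporter of antigen presentation (distance 0.0211, log2 fold change 1.56), and Psmb10, an immunoproteasome subunit (0.072 and 1.51). Next were Gsta4, a glutathione transferase (0.0968 and 1.53), Adar, an RNA-editing enzyme (0.102 and 1.48), and Tsku (0.111 and 1.45). Tap1 had 116 and 108 counts in shCtrl against 401 and 329 in shUSP9X. With 4 libraries in 2 groups this distance mostly measures the size of the fold change, and 113 genes lay within a distance of 0.5.

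Genes upstream of the GBPs and IRGs were then read in turn. Of 14 interferon and cytokine ligand genes, among them Ifng, Ifnb1 and Ifna4, 12 had 0 counts in every library, and Ifnab and Tnf had 1 count in 1 library each. Differences in these 14 genes were not detectable at this depth. Of 20 receptor and signalling genes 18 were tested, and 8 were higher and 5 lower (median 0.08), beside 33.8 and 33.6% of all genes. Irf7, the type I interferon amplifier, was highest with a log2 fold change of 4.06. Nlrc5 (2.61), the activator of MHC class I genes, had 3 and 4 counts in shCtrl against 19 and 29 in shUSP9X. Nlrc5 reached the filter only through shUSP9X. Next in size among the called genes of this list was Irf9, at 1.87 (1.73 with the offset). Irf1, a factor that GBP genes need for induction by interferon-γ, had 1719 and 1475 counts in shCtrl against 2024 and 1695 in shUSP9X, and its log2 fold change of 0.08 did not pass (edgeR adjusted p = 0.198), while with the offset it was -0.22 and passed (edgeR adjusted p = 0.000574). The interferon-γ receptor gene Ifngr1 had -0.09 and did not pass (-0.23 with the offset, edgeR adjusted p = 0.0272), Ifngr2 rose by 0.51, and the kinase gene Jak2 was lower at -1.29.

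Lists of other interferon-induced genes differed in what could be measured. Of 13 genes mainly induced by type I interferon, 12 were higher with a fold change above 1.5 and 1 was lower, beside 10.6 and 18.5% of all genes tested past that fold change, with a median log2 fold change of 2.82. The highest were Oas2 (4.23), Irf7 (4.06) and Usp18 (3.76), and Ifit2 was the lower one (-0.63), a call lost with the GC content and length offset (-0.10, edgeR adjusted p = 0.454). Mx1, on this list too, reached the filter only through shUSP9X. Of 12 genes mainly induced by interferon-γ, 7 had at most 3 counts in every library and 4 were tested. Among these Cd74, the invariant chain, was higher (1 and 4 counts in shCtrl, 49 and 45 in shUSP9X), Nos2 was lower (log2 fold change -3.31), and H2-DMa and H2-DMb1 did not pass. Cd74 reached the filter only through shUSP9X and Nos2 (39 and 44 counts in shCtrl, 5 and 4 in shUSP9X) only through shCtrl, so both had to differ, and with at least 10 counts in every library 0 genes of this list were called in either direction by edgeR. Cxcl9 and H2-Ab1 had 0 counts in every library. The difference between the lists was not tested.

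Of 15 tested genes of other dynamin superfamily GTPases, 6 were higher and 7 lower (median -0.13), which is near the 33.8 and 33.6% of all genes tested. With the offset 8 were higher and 5 lower, beside 4074 and 3254 of all 11430 genes tested with it. Mx1, an antiviral relative, had 4 and 0 counts in shCtrl against 20 and 12 in shUSP9X, while Gvin1, a very large interferon-inducible GTPase, was lower (log2 fold change -2.73, or -1.48 with the offset), as was the mitochondrial fission gene Dnm1l (-1.57, or -0.84 with the offset). The ATG8 conjugation system places IRGs and GBPs on vacuoles. Of its 14 genes 6 were higher and 3 lower (median 0.08), beside 33.8 and 33.6% of all genes tested. Atg10 was at -1.60 (-0.92 with the offset), Atg4b at 0.80 and Gabarapl1 at 0.65 (0.33 with the offset). With the offset 7 of these 14 genes were higher and 3 lower. Atg3 then turned from -0.36 to 0.40 (edgeR adjusted p = 1.43e-05), and Atg7, Gabarap and Becn1 did not pass. Some GBPs are anchored by prenylation. Of 8 enzyme genes 6 were higher and 1 lower (median 0.26), beside 33.8 and 33.6% of all genes tested. With a fold change above 1.5 added, 2 were higher and 1 lower, beside 10.6 and 18.5%. The lower one was Pggt1b, a subunit of a prenyltransferase (log2 fold change -1.99, or -1.0 with the offset). Rce1 (0.62, or 0.24 with the offset) and Fntb (0.60, or 0.32 with the offset) led the higher ones. With the offset Zmpste24, not called without it, was highest (0.64, edgeR adjusted p = 3.99e-11), and Fnta did not pass (0.005, edgeR adjusted p = 0.949). Of 7 tested genes of inflammasomes and pyroptosis, 3 were higher and 0 lower (median 0.34), beside 33.8 and 33.6% of all genes tested. With the offset 5 were higher, and with the replicate block and the offset 4 were, beside 4074 and 4053 of all genes tested. The 3 higher without the offset were Zbp1, the pore gene Gsdmd (0.56, or 0.22 with the offset) and Ninj1 (0.50). Zbp1, a nucleic acid sensor (3 and 4 counts in shCtrl, 140 and 122 in shUSP9X), reached the filter only through shUSP9X. With the offset Ninj1 did not pass (0.16, edgeR adjusted p = 0.0511). Casp4, which GBPs help to activate, had -0.27 and did not pass, but was higher with the offset (0.77, edgeR adjusted p = 0.00275), as were the pore gene Gsdme (0.05 without the offset and 1.19 with it, edgeR adjusted p = 2.72e-08) and the DNA sensor gene Aim2 (0.34 and 0.76, edgeR adjusted p = 0.0463). Nlrp3 and Nlrp1b had at most 1 count.

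**Figure D4:**
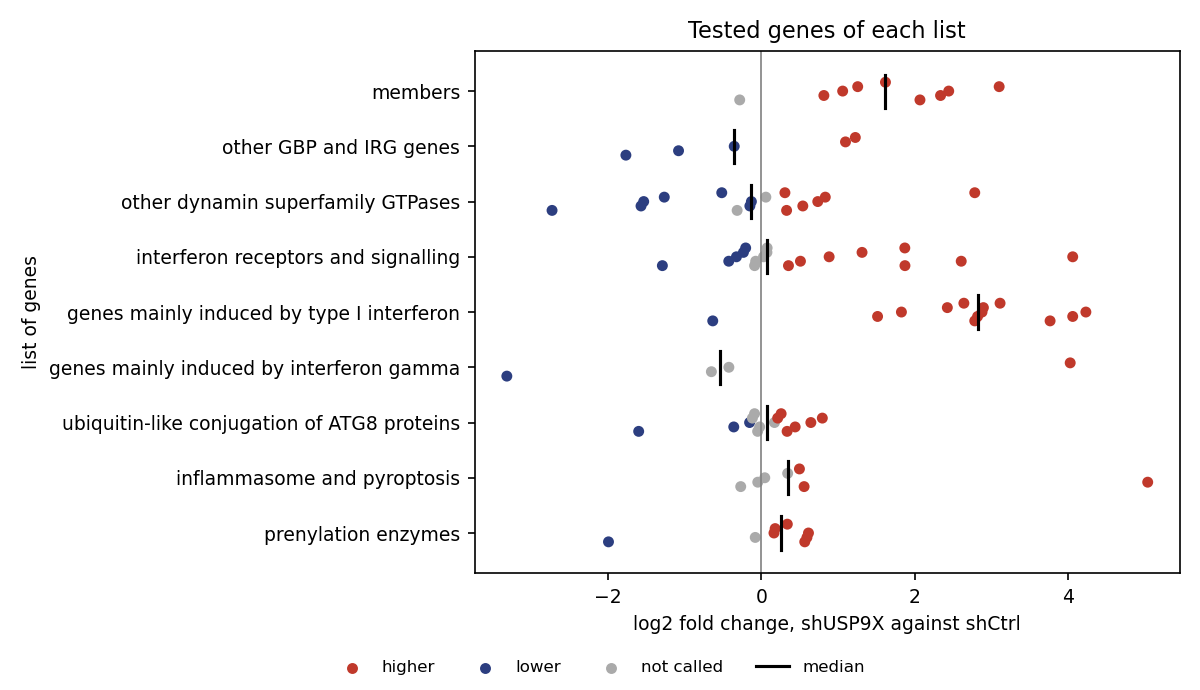
Log2 fold changes (shUSP9X against shCtrl) of the tested genes of 9 lists, 1 point per gene, coloured by call (edgeR adjusted p under 0.05), with a bar at the list's median. The row of members, the 10 GBP and IRG genes, has its median at 1.62, the type I interferon row at 2.82, and the other rows drawn between -0.54 and 0.34. Ligand and cell type marker lists are not drawn.

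Some leukocyte markers were also higher in shUSP9X cells, but most of those listed had few or no counts. Of 22 markers, 7 had 0 counts in every library and 13, these included, had at most 3 in any library, and of the 7 tested 6 were higher and 0 lower, beside 33.8 and 33.6% of all genes tested. Of these 6, Ptprc, Itgam, Adgre1, Csf1r and Cd74 reached the filter only through the shUSP9X libraries and so had to differ, and with at least 10 counts in every library 1 marker was higher, as were 2 with limma on log2 FPKM. Their summed level was 10.4 and 10.2 CPM in shCtrl and 28.5 and 28.2 in shUSP9X, with Cd14 the most abundant (10.3 and 9.85 CPM in shUSP9X). Ptprc had 0 and 0 counts in shCtrl against 29 and 18 in shUSP9X, Itgam 0 and 0 against 72 and 75, and Adgre1 0 and 0 against 58 and 59. Lyz2, an abundant myeloid transcript, had at most 2 counts, and C1qa, C1qb, Cd3e and H2-Ab1 had 0 in every library. The part of these cells or transcripts in the GBP and IRG result was not tested. The effect of USP9X loss and any other effect of the shRNA against it cannot be told apart in this design.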

How the data were processed

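Poly(A) RNA of ID8 cells was sequenced without a strand-marking kit (2 shCtrl and 2 shUSP9X libraries, grouped by title). The submitters' processing notes name fastp 0.18.0, Bowtie2 2.2.8, HISAT2, StringTie 1.3.1 and RSEM, and the study's methods name the build GRCm38. The authors deposited estimated counts per gene, not normalized, and FPKM. Values that were not whole made up 6.40 to 6.69% of each library's values. The test had been planned for whole counts, so the estimated counts were rounded. Molecular identifiers are not described, so floors cover counting error only. Libraries of a group differed by more than sampling noise (mean chi-square per gene 3.36 in shCtrl and 2.09 in shUSP9X).

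Genes were filtered with filterByExpr (11448 kept), scaled by TMM and tested with edgeR 4.0.16 (R 4.3.3) glmQLFTest, two-sided, with Benjamini-Hochberg adjustment over all genes tested and no block. The procedure was also run on simulated data, and the outcome of that run is not given here. Alternatives were DESeq2 1.42.0, other scalings and filters, limma 3.58.1 on log2 FPKM (pseudocount 1 or 0.1, mean FPKM 1 or more), a replicate block, a GC content and length offset (loess, span 0.3, known for 99.8% of genes), each library left out, and other thresholds. Sums over close copies were chosen after seeing the data. The 10 genes and all lists (12 besides them) were chosen with earlier results of these data known. The genes named are Usp9x, every family gene, the 3 largest called changes of each list (of those reported here), genes whose role is described, called neighbours with a log2 fold change of at least 1 in size and the 5 nearest in pattern. Genes named beyond these were chosen after their values were seen. Coordinates are from GENCODE M21, promoters from RefSeq. Protein features and the counts of Gbp11, Gm12250 and Mx2 were not analysed here, and some genes of the lists are not reported here.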

Additional observations from a re-analysis of the deposited data

How the results depend on the processing

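The members' count (8 higher, 0 lower) was 6 to 8 higher and 0 lower over 18 alternatives, and 7 to 8 higher with each library left out, where the lone library of a group is assumed to vary like the other group. Gbp2, Gbp3, Gbp6, Irgm1, Irgm2, Igtp and Tgtp1 stayed higher at the same threshold in every alternative that tested them. Gbp4 lost its call with DESeq2 and without shUSP9X replicate 1, as given above. Gbp7 was -0.28, turned to 0.488 with the offset for GC content and length and to 0.489 with the replicate block and that offset, not past the threshold in any setting. The median log2 fold change of the tested genes of the 10 (1.62) was 1.468 with DESeq2, 1.431 with at least 10 counts in every library, 1.921 on log2(FPKM + 0.1), 1.989 with the offset, 1.989 with the replicate block and the offset, 2.203 without the genes with close copies, and 1.506 to 1.757 with each library left out. Fewer genes entered some of these medians. Genes with close copies were those sharing over 10% of their 100-base words, which among the tested genes were Gbp6, Gbp7 (10.19%) and Tgtp1. With a fold change above 1.5 added, 1218 genes were higher and 2117 lower (3864 and 3843 without it), and 1233 and 2143 at the unadjusted p. Other GBP and IRG genes higher numbered 1 in place of 2 on log2(FPKM + 1) and on log2(FPKM + 0.1), where Gbp9 fell under the filter on mean FPKM. Irgq lost its call with DESeq2, on both FPKM scales, without shCtrl replicate 2 and without shUSP9X replicate 1.

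With a replicate block 3855 genes were higher and 3810 lower, and no call among the GBP and IRG genes changed. Same-numbered libraries did not deviate together (correlation of deviations -0.0453 across genes), and the labels give no shared origin. The median over all genes shifted by no more than 0.0328 (log2) under the other scalings. Genes with few counts, such as Gbp5 and Iigp1, could not be compared at this depth, and without a filter the Gbp5 value was 1.32 (log2; edgeR adjusted p = 0.253).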

Other observations

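Of 12 endothelial and fibroblast markers 5 were tested, and 4 were lower and 1, Pecam1, did not pass, with a summed level of 262 and 271 CPM in shCtrl and 154.6 and 152.3 in shUSP9X. Pdgfra (log2 fold change -2.87), Col1a1 (-1.72) and the angiopoietin receptor gene Tek (-0.80) were among the lower ones, as was Dcn, which was higher with the GC content and length offset (0.88, edgeR adjusted p = 3.42e-13), while Cdh5, Kdr and Lum had 0 counts in every library. Of 11 tested epithelial and mesothelial markers 5 were higher and 4 lower (median 0.12), and with the offset 4 were higher and 6 lower, Krt19 turning from 0.12 to -0.23 (edgeR adjusted p = 6.61e-07). Without the offset Lrrn4 was lowest (-1.64, having reached the filter only through shCtrl), Krt8 was highest (0.92) and Upk1b had 0.68. Over all genes tested 33.8% were higher and 33.6% lower, and with the offset 4074 and 3254 of 11430 genes were.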
